A study of Mus musculus with 7 samples.

Results

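The genes described here are 10 members of the NRF2 pathway, taken by name from the deposited count table, with the regulators Nfe2l2 and Keap1 and the redox genes Gclc, Gclm, Slc7a11, Txnrd1, Srxn1, Nqo1 and Hmox1 among them. They are 10 of the 55423 features in the table, and all 10 were among the 24433 genes that had at least 5 reads in at least 1 tumour and were tested. RNA came from skin squamous tumours (cSCC) of C57BL/6J mice and was sequenced after depletion of ribosomal RNA. The study asked whether forced expression of the transcription factor SOX2 makes involucrin-expressing (IVL+) progenitors of the skin permissive to tumour formation by oncogenic BRAF.

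Both groups carried Ivl-CreERT2, an inducible Cre recombinase driven by the involucrin promoter, and BRAFV600E, and both were induced with topical tamoxifen at an age that the labels give as 7 to 10 weeks. The 3 Ivl:BRAFV600E tumours came from 2 females (tumours 1 and 2, which also carried 1 copy of the Rosa26 tdRFP reporter) and 1 male (tumour 3, without that reporter). The 3 Ivl:BRAFV600E-SOX2LSL tumours came from 2 males (tumours 1 and 2) and 1 female (tumour 3), each heterozygous for Rosa26-LSL-SOX2-IRES-eGFP, from which Cre releases SOX2 together with eGFP. Each tumour came from a separate mouse. Every Ivl:BRAFV600E-SOX2LSL tumour was collected earlier after induction than every Ivl:BRAFV600E tumour, so genotype and time since induction cannot be told apart. Sox2 lay between 155 and 182 CPM (counts per 1 M, after TMM scaling) in the 3 Ivl:BRAFV600E-SOX2LSL tumours and between 0.238 and 0.716 CPM in the others, and EGFP lay between 110 and 139 CPM against 0 counts in all 3 Ivl:BRAFV600E tumours, which allows at most 0.143 CPM there (3 counts), as the labels have it.

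NRF2, the product of Nfe2l2, is a transcription factor that KEAP1 holds in the cytoplasm and hands to the CUL3 ubiquitin ligase for destruction. Oxidants and electrophiles modify KEAP1, NRF2 then accumulates, pairs with a small MAF protein and binds the antioxidant response element in the promoters and enhancers of genes for glutathione and thioredoxin systems, NADPH supply and detoxification. In the skin the pathway is known for protecting keratinocytes from oxidants and for its role in the cornified envelope, and it is often active in squamous carcinomas.

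Promoter sequences were read to show where the core of that element, TGACNNNGC, lies near the start sites of these genes. RefSeq windows on GRCm38.p6, from 250 bases before to 50 bases after a start site, were given for 8 of the 10 genes; Gclc and Hmox1 had no entry. On either strand the core was present in 5 of the 8 genes (5 of their 10 windows), against 4071 of 32851 windows of all genes (12.4%). Each stretch below is written 5′ to 3′ on the strand of its gene, with the 9 bases of the match in capitals. Of the 4 genes shown, in all but Nfe2l2 the match is on the opposite strand, so that the capitals show its reverse complement. Only a short stretch is shown for Srxn1, where annotated transcripts cover the match. The Nfe2l2 stretch (chr2:75704849-75704913, minus strand, the match starting at -240), the Gclm stretch (chr3:122245377-122245477, plus strand, -134), the Txnrd1 stretch (chr10:82859068-82859168, plus strand, -92 from the second of 3 start sites) and the Srxn1 stretch (chr2:152105542-152105570, plus strand, 29 bases into the transcript) read as follows.
Nfe2l2: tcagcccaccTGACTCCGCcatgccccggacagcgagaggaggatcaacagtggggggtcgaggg
Gclm: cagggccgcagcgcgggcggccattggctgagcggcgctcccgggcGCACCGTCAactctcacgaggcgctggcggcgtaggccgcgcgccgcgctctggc
Txnrd1: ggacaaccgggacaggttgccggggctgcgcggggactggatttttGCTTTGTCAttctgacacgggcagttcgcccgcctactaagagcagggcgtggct
Srxn1: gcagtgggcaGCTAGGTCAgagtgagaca

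Read in the direction of the element, the matches are TGACTCCGC in Nfe2l2, TGACGGTGC in Gclm, TGACAAAGC in Txnrd1 and TGACCTAGC in Srxn1, so that the 3 variable bases differ in each. The related AP-1 site TGACTCA, which can share its first bases with the core, was present in 5.20% of all windows and among the 8 genes only in Srxn1 (2 matches), neither of them overlapping the match shown. No core was found in these windows of Keap1, Nqo1 and Slc7a11 or at the other Txnrd1 start sites. A match is a description of the letters and not a measured binding site.

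Of the 10 genes, 4 were lower in Ivl:BRAFV600E-SOX2LSL tumours at an adjusted p below 0.05 (edgeR's quasi-likelihood test with Benjamini-Hochberg adjustment over all 24433 genes), with Nfe2l2, Gclc and Gclm among them, and 0 were higher, also with DESeq2, limma or an unadjusted p. Among all genes tested the same test called 3.9%, with 1.51% lower and 2.39% higher. At an unadjusted p below 0.05, 7 of the 10 genes passed, all of them lower, against 25.7% of all genes in either direction and 11.2% called lower at that level. For 6 of the 10 (the 4 called, Nqo1 and Srxn1) every Ivl:BRAFV600E-SOX2LSL tumour lay below every Ivl:BRAFV600E tumour, against 16% of all genes. The median log2 fold change (Ivl:BRAFV600E-SOX2LSL minus Ivl:BRAFV600E) was -0.88 over the 10 genes and 0.04 over all genes tested. With 3 tumours against 3, an exact permutation test of a single gene cannot give a p below 0.1. These are bulk tumours, in which fewer cells of a type and less RNA per cell cannot be told apart.

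**Figure D1:**
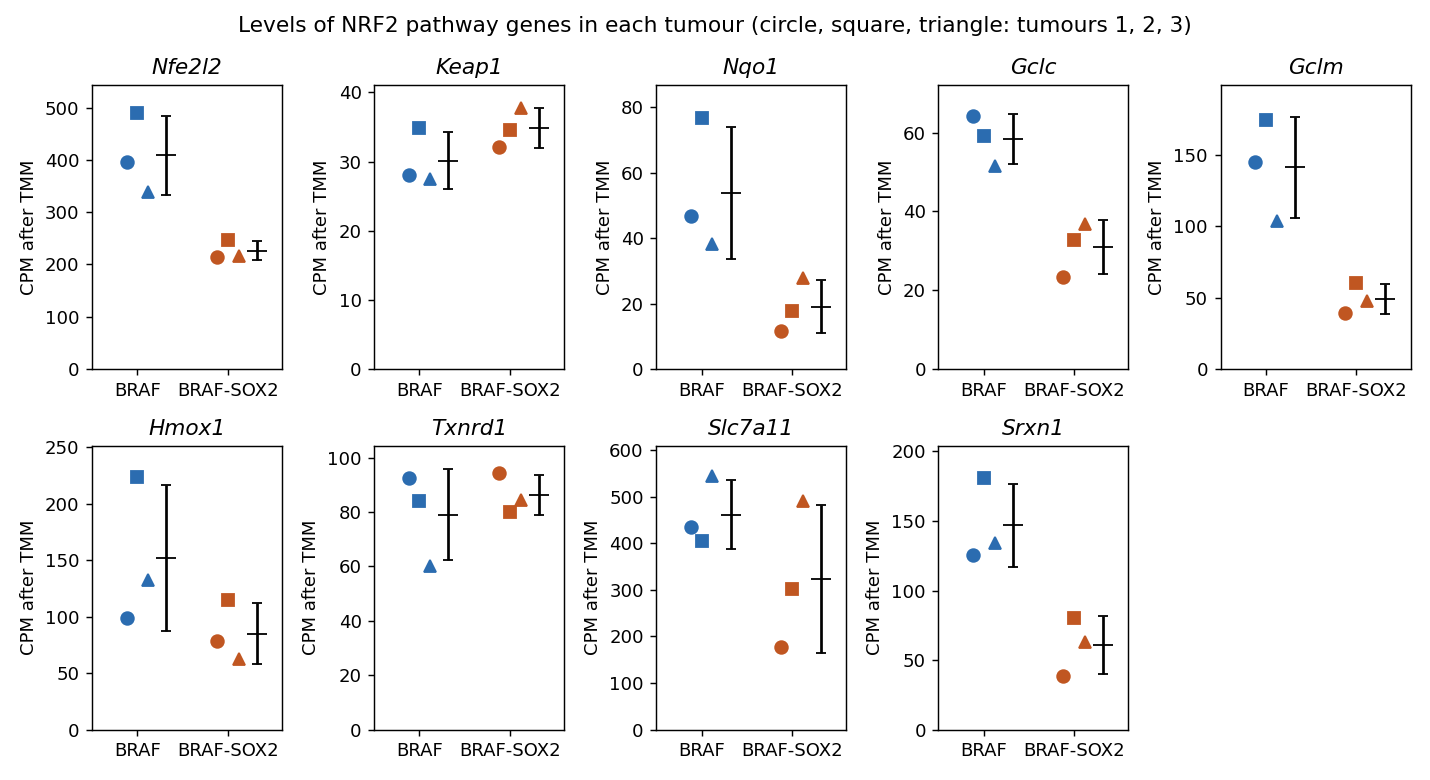
Level of 9 of the genes (y axis, CPM after TMM scaling, from 0) in each tumour of the Ivl:BRAFV600E (BRAF) and Ivl:BRAFV600E-SOX2LSL (BRAF-SOX2) groups; points are tumours and the bar beside them the mean ± SD of 3. The groups do not overlap for Nfe2l2, Nqo1, Gclc, Gclm and Srxn1, and overlap for Keap1, Hmox1, Txnrd1 and Slc7a11.

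Of the regulators, Nfe2l2 was lower in the SOX2-expressing tumours and Keap1 overlapped between the groups. Nfe2l2, on chromosome 2 (75675513 to 75704641, minus strand, GRCm38), measured 397, 490 and 339 CPM in Ivl:BRAFV600E tumours 1, 2 and 3 and 215, 247 and 217 CPM in Ivl:BRAFV600E-SOX2LSL tumours 1, 2 and 3. The groups did not overlap, and the SOX2-expressing tumours lay closer together (226 ± 18.4 CPM against 409 ± 76.2 CPM, mean ± SD, n = 3 each). Nfe2l2 fell by 0.85 on the log2 scale (SE 0.17), 1.81-fold, with an edgeR adjusted p of 0.0445. Keap1, on chromosome 9 (21229730 to 21239361, minus strand), measured 28.0, 34.9 and 27.5 CPM against 32.1, 34.5 and 37.8 CPM. Its groups overlapped, with a log2 difference of 0.21 (SE 0.15, 95% interval -0.14 to 0.55, edgeR adjusted p = 0.403). Counts of Keap1 could hold reads of the overlapping Gm16754, since the use of strand in counting is not stated.

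Within each tumour, Nfe2l2 per kilobase of exon exceeded Keap1 by a factor of 17.5, 17.4 and 15.3 in the Ivl:BRAFV600E tumours and of 8.27, 8.86 and 7.08 in the Ivl:BRAFV600E-SOX2LSL tumours. A ratio of this kind needs no scaling between libraries. The groups did not overlap (log2 difference -1.05, two-sided exact permutation p = 0.1, the smallest that 3 against 3 can give).

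Glutathione synthesis starts with glutamate-cysteine ligase, made of a catalytic subunit (Gclc) and a modifier subunit (Gclm), and depends on cystine brought in by xCT (Slc7a11). Both subunits were lower in the SOX2-expressing tumours, the modifier by the larger estimate, while Slc7a11 overlapped. Gclm, on chromosome 3 (122245557 to 122270732, plus strand), measured 145, 175 and 104 CPM against 39.6, 60.1 and 47.9 CPM. It fell by 1.52 on the log2 scale (SE 0.24), 2.88-fold, with an edgeR adjusted p of 0.0267, the smallest among the 10 genes. Gm17494 and Gm6061 overlap Gclm and could share reads with it.

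Gclc, on chromosome 9 (77754535 to 77794485, plus strand), measured 64.3, 59.2 and 51.6 CPM in Ivl:BRAFV600E tumours and 23.3, 32.8 and 36.7 CPM in Ivl:BRAFV600E-SOX2LSL tumours. It fell by 0.92 on the log2 scale (SE 0.19), 1.89-fold, with an edgeR adjusted p of 0.0489, close to the threshold. The ratio of Gclm to Gclc per exon length was 1.36, 1.77 and 1.21 against 1.02, 1.10 and 0.781, without overlap between the groups (log2 difference -0.58, exact permutation p = 0.1). The modifier was thus above the catalytic transcript in each Ivl:BRAFV600E tumour, and below it in Ivl:BRAFV600E-SOX2LSL tumour 3 alone.

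Slc7a11, on chromosome 3 (49892526 to 50443614, minus strand), measured 434, 406 and 544 CPM against 176, 302 and 491 CPM. Tumour 3 of the SOX2-expressing group lay among the Ivl:BRAFV600E tumours while tumour 1 lay far below them, and the test gave a log2 difference of -0.51 (SE 0.35, 95% interval -1.33 to 0.31, edgeR adjusted p = 0.386). Without tumour 1 of that group the log2 difference was -0.22 (edgeR adjusted p = 0.611), and without its tumour 3 it was -0.94 (edgeR adjusted p = 0.124). Within each sex the sign differed: the difference of mean log2 CPM was 0.23 among females and -1.24 among males, with 1 tumour in an arm of each. Its heavy-chain partner Slc3a2 measured 131, 169 and 133 CPM against 98.8, 92.5 and 159 CPM (log2 difference -0.31, edgeR adjusted p = 0.434), and Ivl:BRAFV600E-SOX2LSL tumour 3 was again the highest of its group. The ratio of Slc7a11 to Slc3a2 overlapped between the groups (exact permutation p = 0.5).

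In the thioredoxin system Srxn1 was lower without overlap and Txnrd1 overlapped. Thioredoxin reductase 1 (Txnrd1), which reduces thioredoxin with NADPH, lies on chromosome 10 (82833951 to 82897712, plus strand) and measured 92.4, 84.2 and 60.3 CPM against 94.1, 80.1 and 84.4 CPM. The groups overlapped, with a log2 difference of 0.13 (SE 0.18, 95% interval -0.29 to 0.55, edgeR adjusted p = 0.688). Sulfiredoxin (Srxn1), which restores overoxidised peroxiredoxins, lies on chromosome 2 (152105516 to 152111376, plus strand) and measured 125, 181 and 134 CPM against 38.7, 80.5 and 62.8 CPM. Its groups did not overlap, with a log2 difference of -1.27 (SE 0.28) and an edgeR adjusted p of 0.0545, just above the threshold. DESeq2's Wald test gave Srxn1 an adjusted p below 0.05, as did limma.

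Ratios within tumours set these genes against each other. Srxn1 relative to its substrate Prdx1, per exon length, was 0.455, 0.517 and 0.473 in Ivl:BRAFV600E tumours and 0.164, 0.325 and 0.356 in Ivl:BRAFV600E-SOX2LSL tumours. Gclm relative to Txnrd1 was 1.77, 2.34 and 1.94 against 0.474, 0.845 and 0.639, and Nqo1 relative to Txnrd1 was 2.31, 4.16 and 2.90 against 0.567, 1.01 and 1.50. None of these 3 ratios overlapped between the groups (exact permutation p = 0.1 for each). With the longest transcript of each gene as its length, a choice made after seeing the data, Gclm relative to Txnrd1 was 1.02, 1.35 and 1.12 against 0.273, 0.486 and 0.367, and Nqo1 relative to Txnrd1 was 1.18, 2.12 and 1.48 against 0.290, 0.516 and 0.767. A change of length moves all tumours by the same factor and leaves the separation of the groups as it was. Txnrd1 relative to thioredoxin itself (Txn1) overlapped (exact permutation p = 0.6). Of 10 ratios computed, 6 did not overlap, and the Benjamini-Hochberg adjustment over the 10 turns their exact p of 0.1 into 0.167.

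**Figure D2:**
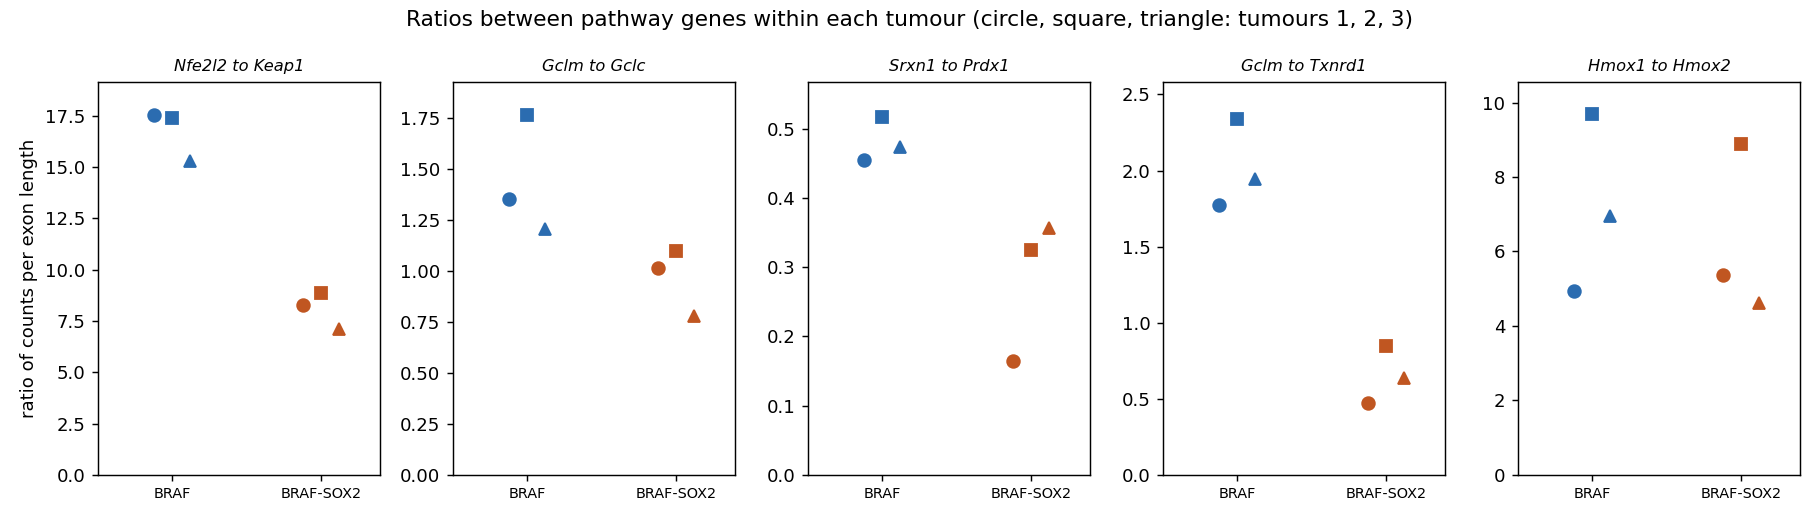
Ratio of 2 transcripts per exon length within each tumour (y axes, no unit, from 0), by group, for 5 of the 10 ratios computed. The Ivl:BRAFV600E-SOX2LSL tumours lie below all Ivl:BRAFV600E tumours except for Hmox1 to Hmox2, where the groups overlap.

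Nqo1 encodes a quinone reductase that is widely used as a readout of NRF2 activity. On chromosome 8 (107388225 to 107403206, minus strand), it measured 46.7, 76.7 and 38.3 CPM against 11.7, 17.7 and 27.8 CPM. The groups did not overlap, and the log2 difference of -1.50 was close in size to that of Gclm, but its standard error was larger (0.37) and its edgeR adjusted p was 0.0690. DESeq2's Wald test gave Nqo1 an adjusted p of 0.00216 and limma one of 0.0395.

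Hmox1 encodes haem oxygenase 1, which breaks haem down to biliverdin, iron and carbon monoxide. On chromosome 8 (75093621 to 75100589, plus strand), it measured 98.5, 224 and 133 CPM against 78.2, 114 and 62.2 CPM. Its groups overlapped, with a log2 difference of -0.84 (SE 0.34, 95% interval -1.64 to -0.03) and an edgeR adjusted p of 0.181. Ivl:BRAFV600E tumour 2, the highest, was also the library with the most haemoglobin RNA: Hbb-bs measured 905 CPM there and between 21.7 and 53.3 CPM in the other 5, and the 9 erythroid markers together 1577 CPM against 38.6 to 97.7 CPM. Without that tumour the log2 difference of Hmox1 was -0.45 (edgeR adjusted p = 0.432), the smallest of the 6 fits without 1 tumour, which reached -1.11. That tumour was the highest of its group in 7 of the 10 genes, and the part of blood in its Hmox1 value was not tested. Relative to the constitutive Hmox2, Hmox1 overlapped between the groups (exact permutation p = 0.6), and Hmox2 itself measured 25.3, 29.2 and 24.1 CPM against 18.4, 16.3 and 17.1 CPM (edgeR adjusted p = 0.0590).

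**Figure D3:**
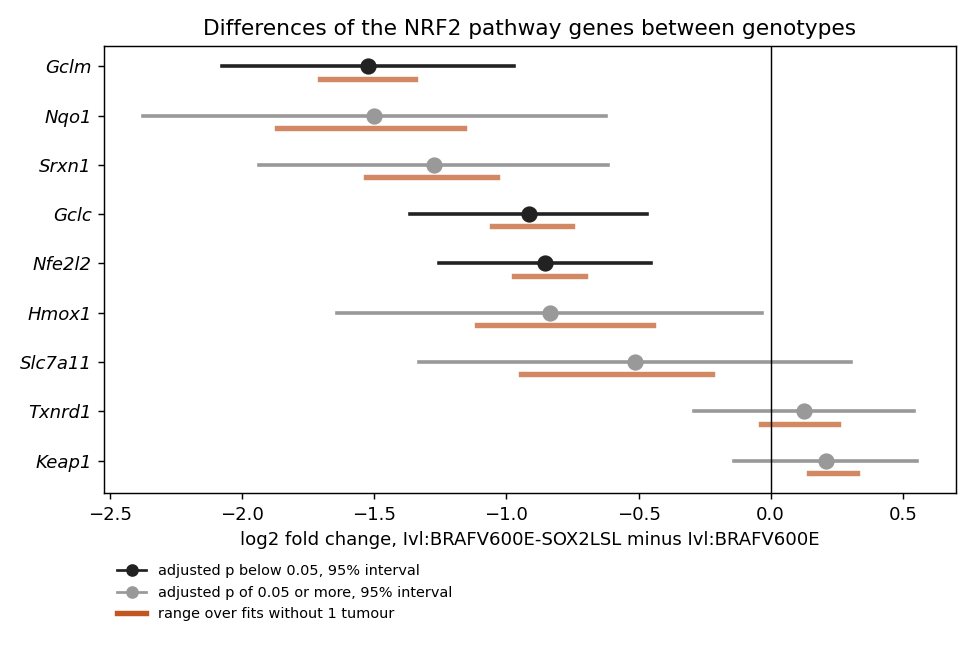
Log2 fold change of 9 of the genes (x axis, Ivl:BRAFV600E-SOX2LSL minus Ivl:BRAFV600E) with its 95% interval, black where the edgeR adjusted p is below 0.05, and in orange the range over the 6 fits that leave out 1 tumour. The estimates of Gclm, Nqo1, Srxn1, Gclc and Nfe2l2 stay below -0.70 in every such fit, and those of Keap1 and Txnrd1 lie near 0.

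The direction of 8 of the 10 genes was below 0 under each scaling, filter, test and covariate tried and without any 1 tumour (within females, Slc7a11 was the exception), while the calls were less stable. With sex of the mouse as a covariate 0 of the 10 passed (adjusted p 0.0720 for Gclm, 6 at an unadjusted p below 0.05). No gene passed without Ivl:BRAFV600E tumour 1, Ivl:BRAFV600E tumour 2, Ivl:BRAFV600E-SOX2LSL tumour 2 or Ivl:BRAFV600E-SOX2LSL tumour 3, Gclm alone passed without Ivl:BRAFV600E tumour 3, and 5 passed without Ivl:BRAFV600E-SOX2LSL tumour 1. DESeq2 and limma each called 6, the 4 with Nqo1 and Srxn1, against 7.76% and 3.97% of all genes called lower by these tests. Scaling to the keratinocyte genes also called 4 but exchanged Nfe2l2 (adjusted p = 0.0542) for Srxn1, against 1.83% of all genes lower.

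The tumours of a group were not alike across the pathway. Ivl:BRAFV600E tumour 2 held the highest value of its group in 7 of the 10 genes, and Ivl:BRAFV600E tumour 3, the male without tdRFP, the lowest in 7. Ivl:BRAFV600E-SOX2LSL tumour 1 held the lowest value of its group in 8 of the 10, and it is the library with the lowest sum of keratinocyte markers and the highest sums of macrophage and fibroblast markers; their part in its low values was not tested. Summed over the 10 genes, the level was 1754, 2166 and 1732 CPM in Ivl:BRAFV600E tumours and 826, 1133 and 1252 CPM in Ivl:BRAFV600E-SOX2LSL tumours.

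Levels of different genes were compared as reads per kilobase of exon per 1 M counts (RPKM on TMM library sizes). For 9 of the 10 genes the order in Ivl:BRAFV600E tumours was Nfe2l2 (108 ± 20.1, mean ± SD, n = 3), Hmox1 (86.6 ± 37.0), Srxn1 (52.1 ± 10.7), Nqo1 (34.7 ± 12.98), Slc7a11 (33.1 ± 5.26), Gclm (22.5 ± 5.65), Gclc (15.5 ± 1.69), Txnrd1 (11.1 ± 2.35) and Keap1 (6.42 ± 0.886). Neighbours in this order overlapped between tumours down to Slc7a11, as did Gclm and Gclc, while Slc7a11 lay above Gclm, Gclc above Txnrd1 and Txnrd1 above Keap1 without overlap. The place of Txnrd1 depends on the length used: with the longest transcript in place of all exons it measured 25.5, 23.2 and 16.6 RPKM and overlapped Gclc, then at 18.8, 17.3 and 15.1 RPKM, and Slc7a11 (50.03 RPKM on average) stood above Nqo1 (34.7 RPKM).

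In Ivl:BRAFV600E-SOX2LSL tumours the order of the same 9 genes was Nfe2l2 (59.6 ± 4.84), Hmox1 (48.5 ± 15.3), Slc7a11 (23.2 ± 11.4), Srxn1 (21.5 ± 7.44), Nqo1 (12.3 ± 5.23), Txnrd1 (12.2 ± 1.01), Gclc (8.21 ± 1.82), Gclm (7.82 ± 1.64) and Keap1 (7.42 ± 0.612). Hmox1 lay above Slc7a11 and Txnrd1 above Gclc without overlap, and the other neighbours overlapped. With the longest transcript as length, Nfe2l2 (86.8 to 99.99 RPKM) lay above Hmox1 (39.6 to 72.9 RPKM) without overlap, Hmox1 and Slc7a11 (19.1 to 53.2 RPKM) overlapped, and Txnrd1 (23.8 RPKM on average) stood above Srxn1 (21.6 RPKM), as Keap1 (9.63 RPKM) did above Gclc (9.04 RPKM) and Gclm (8.80 RPKM). With either length Txnrd1 lay below Gclm in each Ivl:BRAFV600E tumour and above it in each SOX2-expressing tumour.

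Of 18 transcripts of partners and regulators of NRF2 tested, 1 fell and 0 rose (3 lower and 2 higher at an unadjusted p below 0.05, and likewise with DESeq2 and with limma), with a median log2 fold change of -0.09. Of all genes tested, 1.51% fell and 2.39% rose, and 11.2% were lower and 14.5% higher at an unadjusted p below 0.05. DESeq2 called 1555 lower and 2098 higher of the 20046 genes to which it gave an adjusted p. Limma called 970 lower and 1172 higher of 24433. The one that fell was Bach2, which encodes a repressor of the same DNA element. Bach2 measured 10.5, 10.6 and 12.5 CPM against 3.61, 3.60 and 4.30 CPM (log2 fold change -1.54, SE 0.19, edgeR adjusted p = 0.0156). The ligase scaffold Cul3 measured 115, 104 and 102 CPM against 110, 106 and 94.1 CPM (edgeR adjusted p = 0.823), and the small MAF partner Mafg 69.0, 70.9 and 72.3 CPM against 64.7, 64.4 and 67.9 CPM (log2 difference -0.11, edgeR adjusted p = 0.552).

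Other known NRF2 targets went both ways. Of 46 tested, 6 fell and 2 rose (13.04% and 4.35%, against 1.51% and 2.39% of all genes), and their median log2 fold change was -0.06. At an unadjusted p below 0.05, 15 were lower and 8 higher (11.2% and 14.5% of all genes). With DESeq2 11 fell and 7 rose (1555 and 2098 of 20046 over all genes), and with limma 9 and 5 (970 and 1172 of 24433). Those that fell were the glutathione transferases Gsta1, Gsta2 and Gstm1, the efflux pump Abcc3, the prostaglandin reductase Ptgr1 and the esterase Esd. Abcc3 measured 123, 97.7 and 98.4 CPM against 15.3, 12.05 and 27.4 CPM (log2 fold change -2.54, SE 0.31, edgeR adjusted p = 0.0164). Gsta1 measured 15.0, 27.0 and 16.5 CPM against 2.43, 2.92 and 4.73 CPM (log2 fold change -2.54, edgeR adjusted p = 0.0202) and Gsta2 3.62, 6.28 and 3.28 CPM against 0.336, 0.583 and 1.19 CPM (-2.65, 0.0426). These 2 genes are near-identical copies, so the split of reads between them is uncertain.

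Esd, an S-formylglutathione hydrolase, measured 288, 429 and 232 CPM against 117, 122 and 126 CPM (log2 fold change -1.38, edgeR adjusted p = 0.0291), and Ptgr1 171, 276 and 142 CPM against 89.9, 82.9 and 85.3 CPM (-1.19, 0.0467). In these genes, as in Nfe2l2, the SOX2-expressing tumours lay closer together than the Ivl:BRAFV600E tumours. The 2 that rose were the cytosolic NADP-dependent isocitrate dehydrogenase Idh1 and the UDP-glucose dehydrogenase Ugdh. Idh1 measured 42.8, 39.2 and 46.2 CPM against 111, 84.1 and 66.3 CPM (log2 fold change 1.03, SE 0.20, edgeR adjusted p = 0.0411). Of the 13 genes called in these other lists, 0 passed without Ivl:BRAFV600E tumour 1 and 0 without Ivl:BRAFV600E tumour 2, and with sex as a covariate the lists held 3 called genes.

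Of 16 other pentose phosphate and NADPH genes, 1 rose (Idh1) and 0 fell in edgeR's test, with a median log2 fold change of 0.21 (3 lower and 6 higher at an unadjusted p below 0.05, 1 and 4 with DESeq2, 0 and 2 with limma). The shares over all genes were 2.39% risen and 1.51% fallen, and 11.2% lower and 14.5% higher at an unadjusted p below 0.05. Over all genes DESeq2 called 1555 lower and 2098 higher of 20046, and limma 970 and 1172 of 24433. Of 20 genes of the glutathione cycle 0 passed edgeR's test, against 9 at an unadjusted p below 0.05 (3 lower, 6 higher), 6 with DESeq2 (2 lower, 4 higher) and 4 with limma (1 lower, 3 higher). The smallest p there belonged to glutathione synthetase Gss, which measured 22.0, 38.2 and 21.2 CPM against 12.3, 12.7 and 13.002 CPM (log2 difference -1.10, edgeR adjusted p = 0.0558), and to the cysteine and glutamate carrier Slc1a1, which measured 1.64, 0.508 and 1.38 CPM against 2.52, 7.00 and 12.9 CPM (2.66, 0.0707). Of 17 thioredoxin and peroxiredoxin genes 1 rose and 0 fell (3 lower and 5 higher at an unadjusted p below 0.05, 1 and 2 with DESeq2 and with limma). The one that rose was Prdx4, the peroxiredoxin of the endoplasmic reticulum, with 8.53, 7.16 and 6.75 CPM against 40.9, 19.5 and 23.9 CPM (log2 fold change 1.91, SE 0.29, edgeR adjusted p = 0.0266).

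Of 11 genes for the removal of superoxide and peroxide and of 18 genes of haem and iron handling, 0 passed edgeR's test, against 3.9% of all genes. At an unadjusted p below 0.05, which 25.7% of all genes reached, the first list held 1 lower and 3 higher (the same counts with DESeq2, and 1 and 0 with limma) and the second 1 lower and 2 higher (the same counts with DESeq2, and 1 and 1 with limma). Over all genes DESeq2 called 1555 lower and 2098 higher of 20046, and limma 970 and 1172 of 24433. The smallest p of the first list belonged to Pon2 (91.4, 76.9 and 72.9 CPM against 58.7, 51.8 and 57.8 CPM, adjusted p = 0.0727) and the metallothionein Mt1 (53.7, 51.8 and 47.7 CPM against 113, 71.5 and 70.2 CPM, adjusted p = 0.0868). The smallest of the second, beside Hmox2, belonged to the haemoglobin scavenger receptor Cd163, a macrophage gene, with 1.02, 0.0924 and 3.61 CPM against 42.6, 17.6 and 8.92 CPM (edgeR adjusted p = 0.0805). ATF4 also activates Slc7a11, and of 20 genes of its response 0 passed edgeR's test (8 lower and 0 higher at an unadjusted p below 0.05, against 11.2% and 14.5% of all genes, 3 and 0 with DESeq2, 0 and 0 with limma). Of the 20, 18 lay below 0, against 47.2% of all genes, and the median was -0.49 on the log2 scale. The smallest p there were those of Phgdh (124, 143 and 116 CPM against 44.4, 84.5 and 83.9 CPM, edgeR adjusted p = 0.101) and Mthfd2 (26.0, 44.8 and 20.1 CPM against 13.1, 17.4 and 15.5 CPM, edgeR adjusted p = 0.105).

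NADPH oxidases use NADPH to make superoxide. Of 14 such genes tested 3 rose and 0 fell, against 2.39% and 1.51% of all genes. At an unadjusted p below 0.05, 5 were higher and 2 lower, against 14.5% and 11.2% of all genes. DESeq2 called 5 higher and 1 lower (2098 and 1555 of 20046 over all genes), and limma 4 and 1 (1172 and 970 of 24433). Their median was 1.26 on the log2 scale, with 5 of the 14 below 0, while their summed level was 228 to 328 CPM in Ivl:BRAFV600E tumours and 199 to 248 CPM in the SOX2-expressing tumours. Among them were genes of the oxidase of phagocytes. Ncf4 measured 0.648, 1.43 and 0.950 CPM against 5.04, 5.02 and 3.97 CPM (log2 fold change 2.22, edgeR adjusted p = 0.0267) and Rac2 1.64, 2.73 and 3.94 CPM against 12.6, 7.81 and 9.14 CPM (1.83, 0.0426). Macrophage markers moved with them: 12 of 20 lay higher without overlap (against 18.2% of all genes), 1 of them (Csf1r) passed the test, and their summed level was 95.05 to 207 CPM against 255 to 850 CPM. Their part in this result was not tested.

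**Figure D4:**
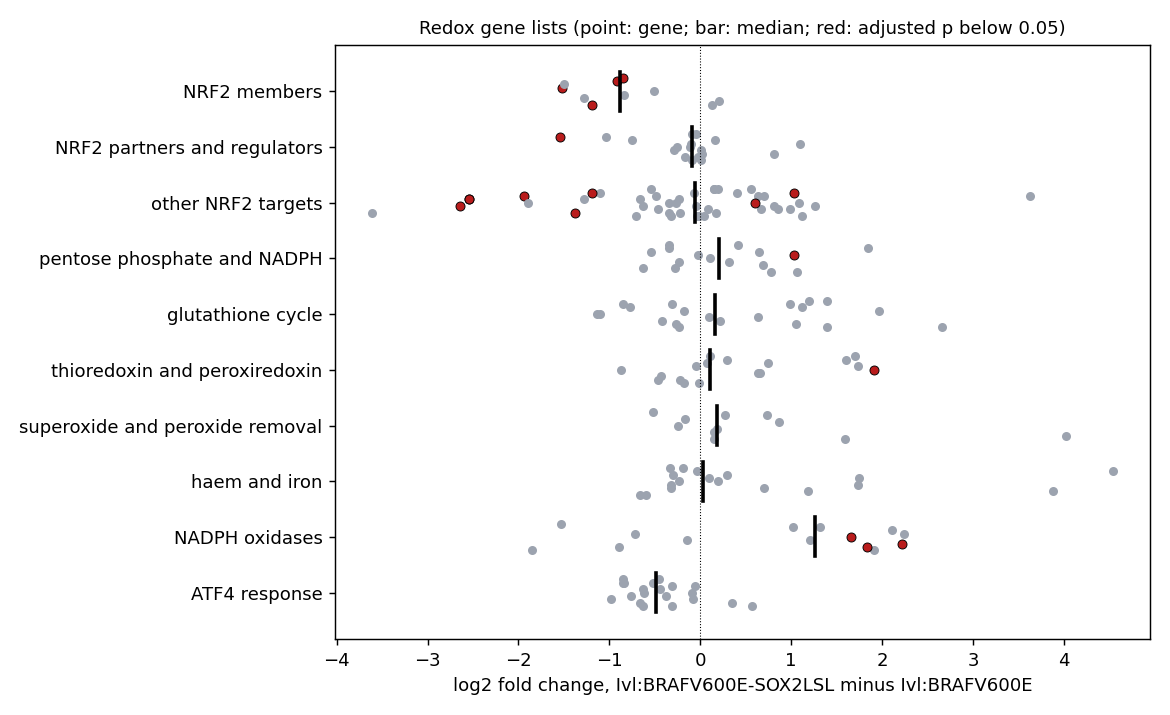
Log2 fold change (x axis, Ivl:BRAFV600E-SOX2LSL minus Ivl:BRAFV600E) of each tested gene in the 10 lists, red where the edgeR adjusted p is below 0.05, with a bar at each list's median and heights within a list only to separate points. The median of the 10 NRF2 members lies at -0.88, that of the NADPH oxidases at 1.26, and the others between -0.49 and 0.21.

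The 20 keratinocyte markers, all of them detected, summed to 44998, 75647 and 61666 CPM in Ivl:BRAFV600E tumours and to 24741, 53080 and 42143 CPM in Ivl:BRAFV600E-SOX2LSL tumours, with a median log2 fold change of -0.08 over the list. Of the 20, 2 rose (Cdh3 and Epcam) and 0 fell, against 2.39% and 1.51% of all genes, and 8 were lower and 6 higher without overlap, against 16% and 18.2% of all genes. At an unadjusted p below 0.05, 6 were lower and 7 higher, against 11.2% and 14.5% of all genes. Set against the mean log2 level of these markers in the same tumour, the same 6 genes remained lower without overlap, with differences from -0.82 for Nfe2l2 to -1.50 for Nqo1, and Hmox1 (-0.77) no longer overlapped. On that scale 14% of all genes were lower without overlap. The mean gives equal weight to each marker, with 8 lower and 6 higher in it, and moved Nfe2l2 little (-0.85 in edgeR's test). No comparison with the summed level of the markers was made, so the part of keratinocyte content was not tested.

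Skeletal muscle markers summed to 99.5 to 121 CPM against 1062 to 4235 CPM, and 23 of 28 rose, against 2.39% of all genes. With the muscle genes removed before scaling, the log2 fold changes of the 10 genes ranged from -1.52 to 0.21 and the same 4 passed. Only the rows of these markers were removed, so this fit cannot show how muscle cells affect the levels of other genes. Fibroblast markers summed to 886 to 5520 CPM against 4303 to 9147 CPM, neutrophil markers to 343 to 1218 CPM against 1468 to 2135 CPM, endothelial markers to 232 to 258 CPM against 242 to 299 CPM, and adipocyte markers to 78.9 to 117 CPM against 69.3 to 180 CPM. The part of these cells in the differences of the 10 genes was not tested.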

How the data were processed

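Raw read counts per gene were deposited by the authors, without normalisation, filtering or pooling of replicates. Per their processing notes, reads were checked with FastQC 0.11.8, trimmed with Trim Galore, aligned to GRCm38 with HISAT2 2.1.0 and counted with featureCounts (Subread 1.6.3). Whether strand or multimapping reads were used is not stated. Of 7 columns, 6 were assigned to groups through the mouse names in the study's Source Data, which also gave sex and alleles. The remaining 1 column matched no listed mouse, its group is uncertain, and it was not used. The columns carry no replicate number of the labels, and the tumour numbers used here are only names.

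The filter of the study was used, which keeps a gene that reaches 5 reads in any 1 tumour. After TMM scaling the genotypes were compared with edgeR 4.0.16 (quasi-likelihood test, no covariate) in R 4.3.3, with Benjamini-Hochberg adjustment at 0.05 over all 24433 genes. Single ratios were compared by an exact two-sided permutation test of mean log2 values. Lists were described by counts and medians, without a set test. Alternatives were DESeq2 1.42.0, limma 3.58.1 (voom with sample weights), DESeq2 size factors, upper-quartile scaling, scaling to the keratinocyte markers, no filter, filterByExpr, sex as a covariate, removal of muscle genes, longest transcripts for lengths, and each tumour left out in turn. Coordinates and exon lengths came from GENCODE M21, and promoters from RefSeq on GRCm38.p6.

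The members and lists were chosen with earlier results of these data known. Named were every member, Sox2 and EGFP, and from each list the genes with an adjusted p below 0.05 (at most the 6 with the smallest p, or, where none passed, the 2 with the smallest p), with Slc3a2, Cul3 and Mafg. Some results under this rule, 1 member among them, are not reported here. Partners in ratios, overlapping genes and cell markers were named outside this rule. Library totals were 23565432 to 31152826 counts, and member genes had 418 to 13588 counts per tumour. Counting error is therefore small beside the spread between tumours (common biological coefficient of variation 0.372). On simulated counts for this comparison, with 200 of 22882 genes changed, edgeR recovered 63 with 1 false call, DESeq2 83 with 15 and limma 62 with 0. The simulation gave that common coefficient to every gene. In the data 25.7% of genes reached an unadjusted p below 0.05, so these rates may not carry over. Figures were drawn with Python 3.11.15 and matplotlib 3.10.9.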

Additional observations from a re-analysis of the deposited data

How the results depend on the processing

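The count of genes called over the whole table was 954 with edgeR, 3653 with DESeq2's Wald test, 2142 with limma, 1759 without a filter on low counts, 228 with sex as a covariate and between 22 and 1575 without 1 tumour. Of the 10 NRF2 pathway genes 4 were called, against 0 with sex as a covariate and between 0 and 5 without 1 tumour. The other redox lists together held 13 called genes, against 47 with DESeq2, 32 with limma, 26 without a filter, 3 with sex as a covariate and between 0 and 24 without 1 tumour. Fits without 1 tumour or with sex have fewer residual degrees of freedom. The cause of these shifts, which went both ways without 1 tumour, was not tested. Upper-quartile scaling and scaling to the keratinocyte genes moved the share of higher among all calls from 61.3% to 52.2% and 47.0%. The median log2 fold change of the 10 genes stayed between -1.04 and -0.80 without 1 tumour, and was -1.02 in females and -0.995 in males, an alternative chosen after seeing the data. Without 1 tumour, Txnrd1 ranged from -0.035 (without Ivl:BRAFV600E tumour 3) to 0.25, Keap1 from 0.15 to 0.33 (without Ivl:BRAFV600E tumour 2), and Cul3 from -0.098 to 0.014, above 0 without Ivl:BRAFV600E tumour 1 (0.00189) and without Ivl:BRAFV600E-SOX2LSL tumour 3. With the longest transcript as length, the median level of the 10 genes was 42.4 in place of 33.9 RPKM in Ivl:BRAFV600E tumours and 22.7 in place of 16.9 RPKM in the SOX2-expressing tumours. No paired analysis was possible because the columns carry no replicate number, so the planned fit with the replicate number as a block was not run. The 9 genes named had at least 418 counts in each tumour.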
